A study of Mus musculus with 12 samples.

Results

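The 48 genes described here encode the machinery that copies DNA, the enzymes that supply its deoxynucleotides, and 4 E2F transcription factors. They were taken by symbol from a list of replication, nucleotide synthesis and E2F genes, and all 48 were found among the 39179 gene IDs of the count tables. RNA sequencing compared 4 lines of NIH-3T3, an immortalized mouse embryonic fibroblast line, made, per the study's methods for NIH-3T3, by retroviral infection and puromycin selection. One line stably expressed FLAG-tagged CBL-70Z, one FLAG-tagged CBL-Y371S, one FLAG-tagged WT-CBL, and one carried the empty vector (EV). CBL is a ubiquitin ligase that marks activated receptor tyrosine kinases for degradation; CBL-70Z lacks part of the linker helix and RING region, CBL-Y371S has a tyrosine of the linker helix replaced by serine, and both mutants have lost ligase activity. Each line gave 3 libraries, 12 in all, and the labels name no drug treatment or time course.

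Before a cell enters S phase, the origin recognition complex, CDC6 and CDT1 load the MCM2-7 helicase onto replication origins, and geminin blocks CDT1 so that each origin is licensed only once per cycle. In S phase CDC45 and the GINS complex join MCM2-7 to form the active helicase. Polymerase alpha and primase then start new strands, the RFC complex loads the sliding clamp PCNA, and polymerases delta and epsilon extend them. Many of these genes are classical targets of E2F factors, which the retinoblastoma family holds in check until a growth signal releases them, and in proliferating fibroblasts their RNA peaks around the G1 to S transition.

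Reads in genes ranged from 20724468 to 29684881 per library. All 10 fibroblast markers passed the filter on low values, with summed normalised read counts per library of 813236 to 826792 in CBL-70Z, 772336 to 818788 in CBL-Y371S, 900142 to 949886 in WT-CBL and 994616 to 1032800 in EV. Every CBL line thus lay below EV in this sum, but the markers did not all move this way. Means of Col1a1, Col1a2, Col3a1, Pdgfra, Pdgfrb, Thy1 and Fn1 were below EV in every CBL line. Those of Vim and S100a4 were above EV in every CBL line, and that of Dcn in CBL-70Z only. The part of these differences in the results on the 48 genes was not tested. The sums of the 5 epithelial, 4 blood, 4 endothelial, 3 adipocyte and 4 skeletal muscle markers did not exceed 312 in any library. Reads counted at mouse Cbl were higher than in EV by 1.33 ± 0.08 in CBL-70Z, 1.15 ± 0.08 in CBL-Y371S and 0.23 ± 0.08 in WT-CBL (log2 ± SE). The species of the CBL insert is not given in the sources used here, so these reads do not measure its dose. They were also higher than in WT-CBL, by 1.10 ± 0.08 in CBL-70Z and 0.92 ± 0.08 in the CBL-Y371S line. Replicates of a line differed from each other with a chi-square per degree of freedom of 1.429 to 2.94 over genes, except that WT-CBL replicate 3 gave 6.048 and 6.041 against the other WT-CBL libraries. The main counts that involve WT-CBL are therefore also given without that library. The labels do not say whether libraries of a line came from separate cultures, so p-values measure the spread between these libraries, which may be technical.

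Most of the 48 genes were expressed more highly in every CBL line than in EV, with small fold changes. A gene is called here where limma, fitted to log2(value + 1) of all 12 libraries and 15266 genes, gave a Benjamini-Hochberg adjusted p below 0.05 over all those genes. In CBL-70Z, 41 of the 48 rose and none fell, with a median log2 fold change of 0.23, or 1.17-fold, against a background of 12.2% of all genes called higher and 12.1% called lower. In CBL-Y371S, 44 rose and none fell, with a median of 0.45, or 1.36-fold, against backgrounds of 29.8% higher and 30.3% lower. In WT-CBL, 33 rose and none fell, with a median of 0.15, or 1.11-fold, against backgrounds of 20.8% higher and 21.0% lower. Without WT-CBL replicate 3 the WT-CBL count was again 33 higher, with 1 lower (E2f2) and a median of 0.13; Rfc4 lost its call (0.08 ± 0.05, adjusted p = 0.179) and Chaf1a gained one (0.11 ± 0.04, 0.0196). Across all genes the median log2 fold change was 0.01 in each of these 3 comparisons. The 3 comparisons share the EV libraries and are not independent of each other. In bulk RNA, a larger share of cells in S phase and more of these RNAs per S phase cell cannot be told apart.

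Counting libraries instead of tests gave the same ordering. All 3 CBL-70Z libraries lay above all 3 EV libraries for 44 of the 48 genes, where 21.2% of all genes did so. For CBL-Y371S this held for 45 genes against a background of 32.8%, and for WT-CBL for 33 genes against 26.3% (37 genes against 29.4% for the other 2 WT-CBL libraries without replicate 3). No member changed by 1 or more on the log2 scale in any comparison with EV. As fitted, the largest values were 0.65 for Gmnn in CBL-Y371S, 0.58 for E2f2 in CBL-70Z and 0.33 for Gins1 in WT-CBL.

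**Figure D1:**
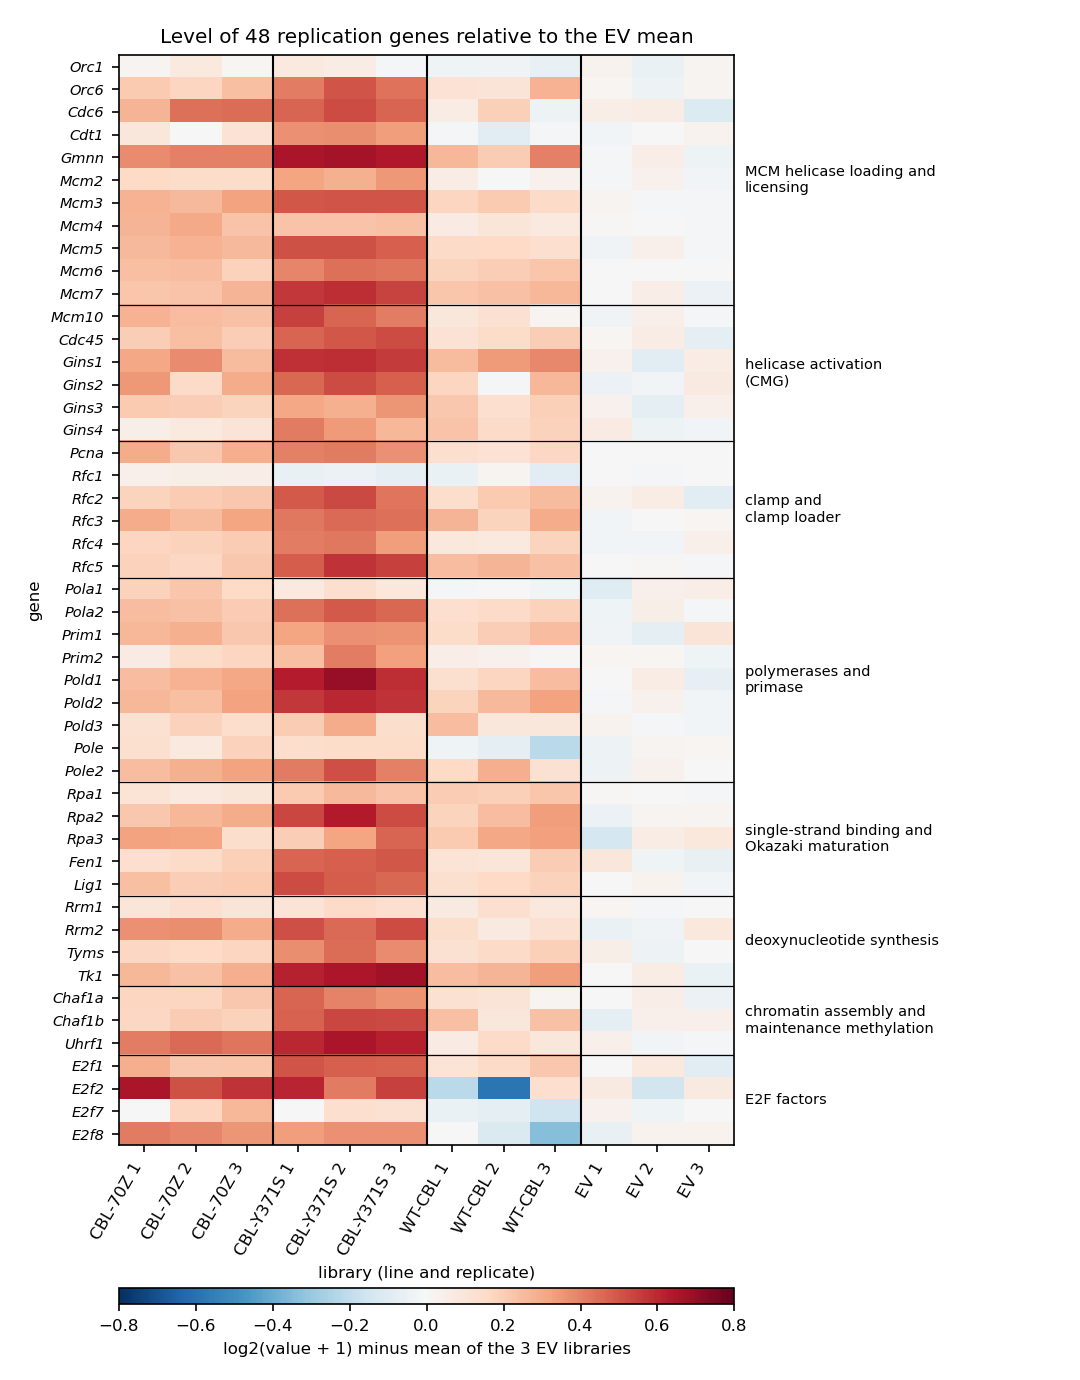
Heat map of the 48 genes (rows, grouped by role) in the 12 libraries (columns), with color giving log2(value + 1) minus the mean of the 3 EV libraries. The CBL-Y371S columns are the darkest red for 42 of the 48 genes by line mean, the CBL-70Z columns are paler, and WT-CBL is pale red with blue cells for E2f2, E2f7, E2f8 and Pole.

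Summed over the 48 genes, the reads amounted to 3892 ± 11.3 CPM (counts per 1000000 reads in genes) in CBL-70Z, 4450 ± 9.2 in CBL-Y371S, 3683 ± 43.7 in WT-CBL and 3292 ± 22.5 in EV (mean ± SD, n = 3 libraries per line). The ratios to EV were 1.18, 1.35 and 1.12 for CBL-70Z, CBL-Y371S and WT-CBL. Library by library the sums were 3891.3, 3881.3 and 3903.9 in CBL-70Z cells, 4440.2, 4458.2 and 4452.5 in CBL-Y371S, 3655.1, 3661.0 and 3733.6 in WT-CBL, and 3272.8, 3316.6 and 3286.0 in EV. No library of any line overlapped those of another line.

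**Figure D2:**
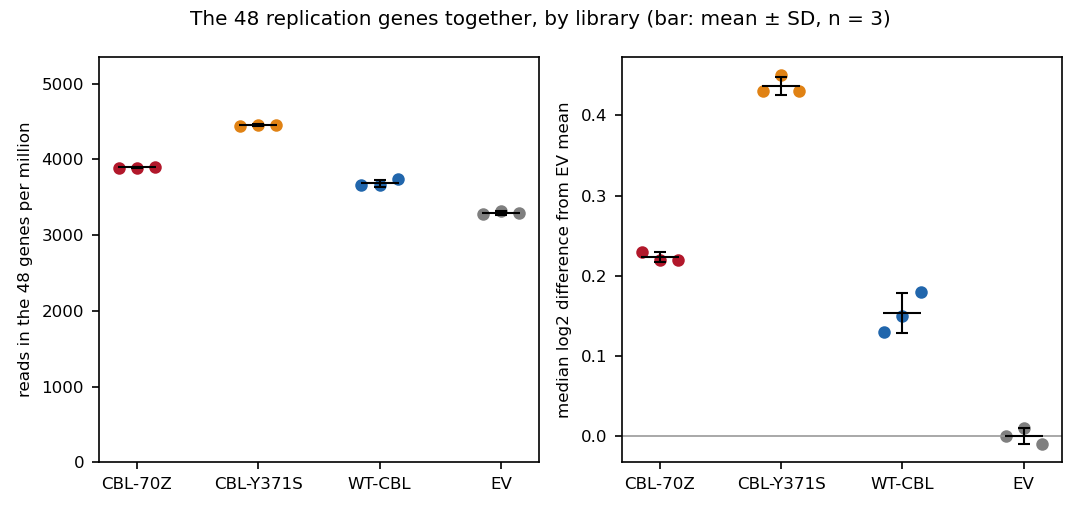
Summed reads of the 48 genes in CPM (left) and the median over the 48 genes of the log2 difference from the EV mean (right), 1 point per library, with bars for mean ± SD (n = 3). On both axes the 4 lines separate in the order CBL-Y371S, CBL-70Z, WT-CBL and EV from high to low.

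In 31 genes the level was called higher in all 3 CBL lines, where 6.66% of all genes were, and in 32 without WT-CBL replicate 3. As fitted, these include most of MCM2-7, 4 of the 5 RFC subunits, all 3 RPA subunits and all 4 genes of deoxynucleotide synthesis. With a trend of fold change with exon length and GC content removed, Rfc4 and Rpa3 lost their calls in CBL-70Z and WT-CBL. Mcm4, Rrm2, Pcna, Uhrf1, E2f1, Orc6, Gins3 and Pole2 then lost theirs in WT-CBL. In 30 genes the means ran in the order CBL-Y371S, CBL-70Z, WT-CBL and EV from high to low. The mean was highest in CBL-Y371S for 42 genes and in CBL-70Z for the other 6, which were Mcm4, Rfc1, Pola1, E2f2, E2f7 and E2f8. It was lowest in EV for 40 genes, in WT-CBL for 7 (Orc1, Cdt1, Pola1, Pole, E2f2, E2f7 and E2f8) and in CBL-Y371S for Rfc1. The genes Orc1, Rfc1 and E2f7 were called in no comparison with EV as fitted.

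The promoters of these genes were read for letters that E2F proteins are known to bind, because E2F factors are both members of the group and its classical regulators. RefSeq promoter windows of GRCm38.p6, 250 bases before to 50 bases after a transcript start, were matched for 40 of the 48 genes. The sequence TTTCGCGC or TTTGGCGC, on either strand, was present in a window of 12 of the 40 genes, or 30.0%. It was present in a window of 0.929% of 27025 genes, which were not limited to genes expressed here. The 12 genes were Cdt1, E2f2, Lig1, Mcm3, Mcm5, Mcm6, Mcm7, Orc1, Pola1, Pole2, Rfc3 and Uhrf1. CCAAT, the letters bound by NF-Y, was in 26 of the 40 (65.0%, against 41.1% of the 27025 genes), CACGTG, an E-box, in 7 (17.5% against 8.09%) and TATAAA in 3 (7.50% against 15.7%), each on either strand. The sites are shown with up to 10 bases on each side, read 5′ to 3′ on the strand that holds the motif, with the 8 letters of the motif in capitals.

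Cdt1 (chr8:122568037-122568064, plus strand): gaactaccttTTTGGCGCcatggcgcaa
E2f2 (chr4:136172303-136172323, plus strand): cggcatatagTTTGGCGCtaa
Lig1 (chr7:13278842-13278869, minus strand): gccacacagaTTTCGCGCgcactttggc
Mcm3 (chr1:20820263-20820284, minus strand): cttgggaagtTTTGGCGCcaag
Mcm5 (chr8:75109346-75109373, plus strand): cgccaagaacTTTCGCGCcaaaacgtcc
Mcm5 (chr8:75109350-75109377, minus strand): ggctggacgtTTTGGCGCgaaagttctt
Mcm6 (chr1:128359798-128359825, minus strand): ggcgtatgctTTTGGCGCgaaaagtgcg
Mcm6 (chr1:128359794-128359821, plus strand): cgcacgcactTTTCGCGCcaaaagcata
Mcm6 (chr1:128359735-128359762, minus strand): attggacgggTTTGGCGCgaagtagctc
Mcm7 (chr5:138171850-138171877, minus strand): ggtgacgacgTTTCGCGCcaatttcggt
Orc1 (chr4:108579417-108579444, minus strand): ggagaaaactTTTCGCGCcactaaccga
Pola1 (chrX:93632276-93632303, plus strand): cgggagtgcaTTTGGCGCcctgtgatga
Pole2 (chr12:69228163-69228190, plus strand): atgttcgcgaTTTGGCGCcaccgccgac
Rfc3 (chr5:151651201-151651228, minus strand): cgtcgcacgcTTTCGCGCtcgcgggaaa
Uhrf1 (chr17:56304118-56304145, plus strand): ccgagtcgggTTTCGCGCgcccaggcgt

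The Mcm5 window and one place in the Mcm6 window hold both letter strings overlapping on opposite strands, so that 15 matches mark 13 places. The whole windows of Mcm6, which had the most matches, and of Uhrf1, the gene with the smallest adjusted p in CBL-70Z against EV among the 48, follow on the strand of the gene, with the matches in capitals.

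Mcm6 (chr1:128359656-128359955, minus strand): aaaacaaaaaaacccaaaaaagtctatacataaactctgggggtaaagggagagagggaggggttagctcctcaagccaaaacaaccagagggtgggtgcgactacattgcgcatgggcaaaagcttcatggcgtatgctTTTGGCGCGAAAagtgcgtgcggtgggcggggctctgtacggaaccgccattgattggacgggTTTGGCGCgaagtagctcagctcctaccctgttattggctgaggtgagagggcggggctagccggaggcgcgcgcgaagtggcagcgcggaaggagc
Uhrf1 (chr17:56304063-56304362, plus strand): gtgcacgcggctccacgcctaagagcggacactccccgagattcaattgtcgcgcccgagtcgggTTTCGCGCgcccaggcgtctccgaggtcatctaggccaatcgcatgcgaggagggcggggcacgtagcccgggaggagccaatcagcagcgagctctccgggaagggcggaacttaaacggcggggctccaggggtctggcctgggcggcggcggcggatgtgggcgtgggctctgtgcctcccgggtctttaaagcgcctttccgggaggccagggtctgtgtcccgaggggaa

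Members with and without such a match had similar median log2 fold changes against EV, of 0.25 and 0.21 in CBL-70Z cells, 0.47 and 0.43 in CBL-Y371S, and 0.15 and 0.15 in WT-CBL, over 12 and 28 genes. A match is a description of letters and says nothing about whether a factor was bound in these cells.

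Among the 11 genes of helicase loading and licensing, 9 rose in CBL-70Z, 10 in CBL-Y371S and 7 in WT-CBL, with medians of 0.24, 0.45 and 0.15. Gmnn, which encodes the CDT1 inhibitor geminin, was among the 3 largest increases in each line as fitted. Its normalised read counts were 668.3, 681.3 and 679.5 in CBL-70Z cells, 809.2, 818.1 and 801.0 in CBL-Y371S, 618.8, 592.1 and 679.4 in WT-CBL, and 510.2, 533.8 and 500.0 in EV. Every library of the 3 CBL lines lay above every EV library. The log2 fold changes were 0.39 ± 0.05 for CBL-70Z (adjusted p = 7.2e-06), 0.65 ± 0.05 for CBL-Y371S (1.2e-09) and 0.29 ± 0.05 in WT-CBL (1.3e-04). With a trend of fold change with exon length and GC content over all genes removed, they were 0.33 ± 0.05, 0.49 ± 0.05 and 0.15 ± 0.05.

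The 6 subunits of the MCM2-7 helicase rose in both mutant lines, and 5 of them rose in WT-CBL. In CBL-70Z their log2 fold changes ran between 0.15 ± 0.03 for Mcm2 and 0.29 ± 0.03 for Mcm3, and in CBL-Y371S between 0.23 ± 0.03 for Mcm4 and 0.56 ± 0.03 for Mcm7. In WT-CBL, Mcm2 was at 0.03 ± 0.03 (adjusted p = 0.375), and the other subunits ran between 0.08 ± 0.03 for Mcm4 and 0.24 ± 0.03 for Mcm7. With the length and GC trend removed, Mcm2 was called in WT-CBL (0.12 ± 0.03, adjusted p = 0.00313) and Mcm4 was not (0.05 ± 0.03, 0.154). Mcm6, whose promoter is shown above, had the highest level per kb of exon among the 48, at 1510.8 normalised reads per kb over the 12 libraries. It was at 7164.8, 7187.3 and 6876.1 in CBL-70Z cells, 7945.0, 8236.4 and 8148.9 in CBL-Y371S, 6866.7, 6932.0 and 7053.3 in WT-CBL, and 6044.6, 6056.2 and 6081.3 in EV. The CBL-70Z and WT-CBL libraries overlapped at Mcm6, and both lay between CBL-Y371S and EV.

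Mcm4 departed from the other subunits in the order of the mutants. It was at 5082.1, 5209.3 and 4946.3 in CBL-70Z cells, 4936.4, 4943.2 and 4963.9 in CBL-Y371S, 4418.9, 4508.3 and 4452.1 in WT-CBL, and 4242.9, 4215.4 and 4193.9 in EV. CBL-70Z and CBL-Y371S overlapped, with a log2 difference of 0.04 ± 0.03 (adjusted p = 0.257). As fitted, the difference of WT-CBL from EV, 0.08 ± 0.03 (adjusted p = 0.0202), was the smallest called in that line.

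The origin licensing factors did not move together. Cdc6, which recruits the helicase to the origin complex, rose by 0.39 ± 0.06 in CBL-70Z cells, by 0.48 ± 0.06 in CBL-Y371S cells, and was at 0.07 ± 0.06 in WT-CBL (adjusted p = 0.42). Cdt1, which delivers MCM2-7, rose in CBL-Y371S, by 0.36 ± 0.04, and was at 0.07 ± 0.04 in CBL-70Z (adjusted p = 0.177) and -0.03 ± 0.04 in WT-CBL (0.488). Orc6, the smallest origin complex subunit, rose in all 3 lines as fitted, by 0.21 ± 0.04, 0.45 ± 0.04 and 0.16 ± 0.04 in CBL-70Z, CBL-Y371S and WT-CBL. With the length and GC trend removed, Orc6 was not called in WT-CBL (0.09 ± 0.04, adjusted p = 0.151). Orc1, the largest subunit, whose promoter holds an E2F match, was at 0.04 ± 0.05 in CBL-70Z, 0.04 ± 0.05 in CBL-Y371S and -0.04 ± 0.05 in WT-CBL, and none of these was called.

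**Figure D3:**
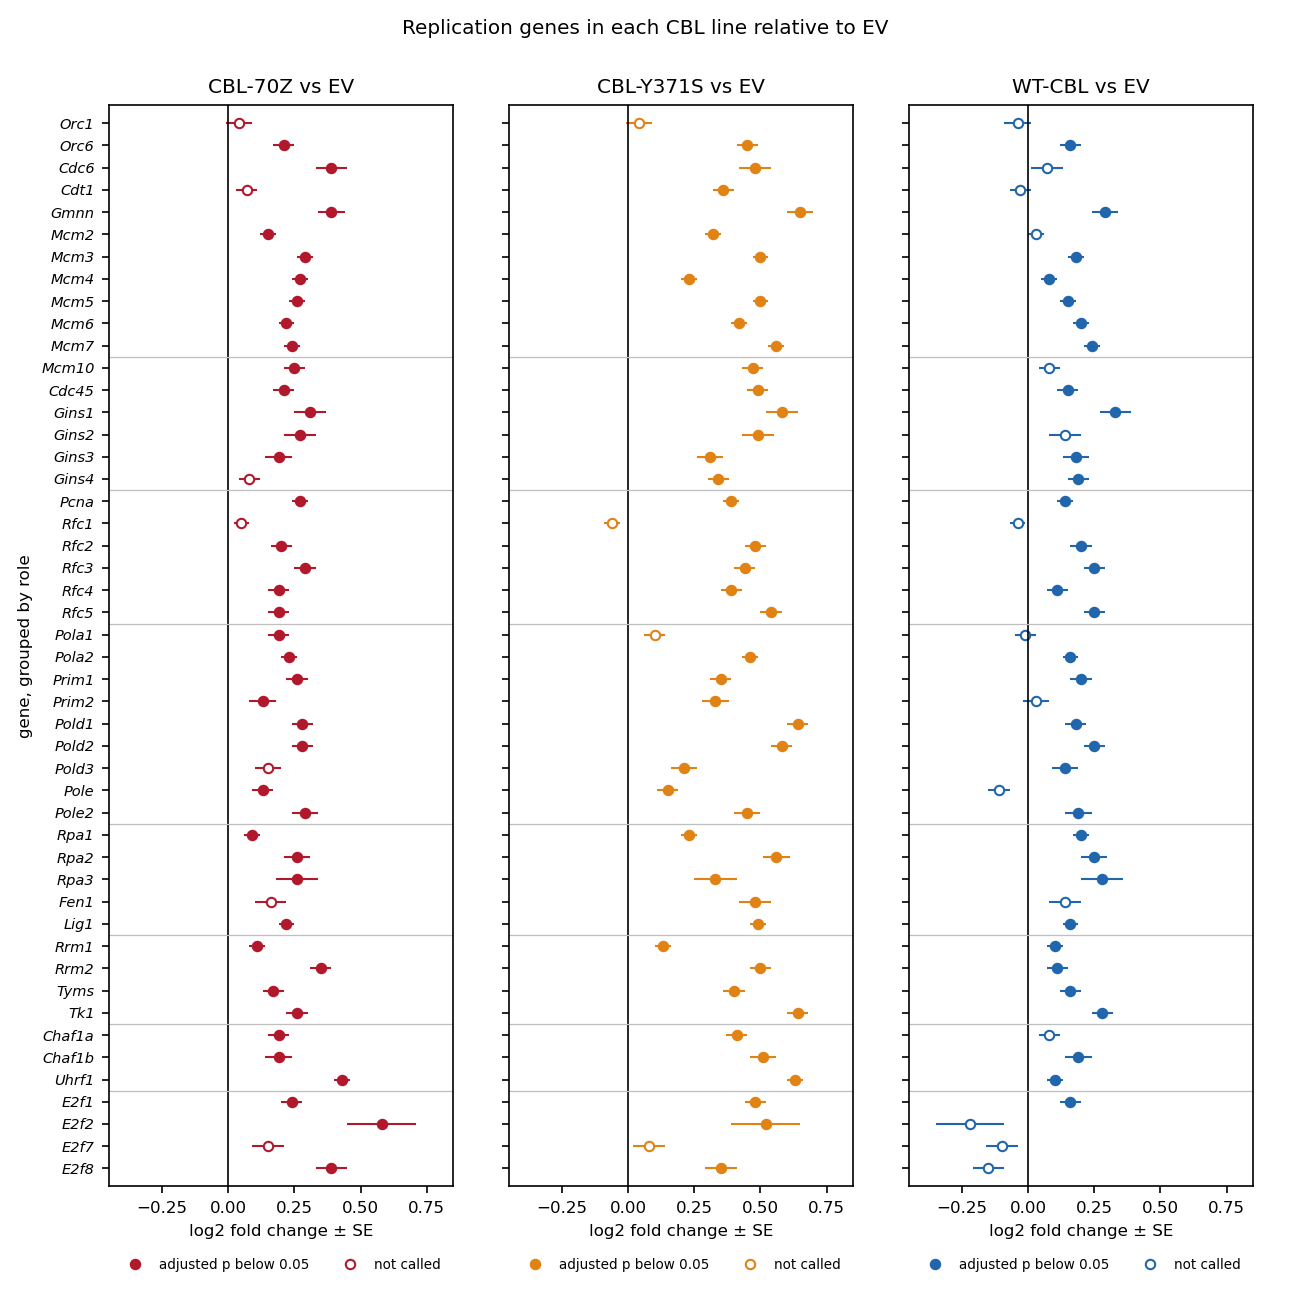
Log2 fold change ± SE of each of the 48 genes in CBL-70Z, CBL-Y371S and WT-CBL against EV, grouped by role, with filled points for adjusted p below 0.05 and open points for genes not called. Points lie to the right of 0 for 48, 47 and 40 of the genes in the 3 panels, and the CBL-Y371S panel is shifted farthest, with a median of 0.45.

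The 6 genes of helicase activation all rose in CBL-Y371S, with a median of 0.48, while 5 rose in CBL-70Z (median 0.23) and 4 in WT-CBL (median 0.17). Gins1, a subunit of GINS, had the largest fold change of WT-CBL as fitted. Its counts were 344.4, 361.2 and 330.9 in CBL-70Z cells, 417.1, 418.9 and 410.9 in CBL-Y371S, 332.0, 351.9 and 363.5 in WT-CBL, and 284.2, 261.1 and 289.4 in EV. All 3 CBL lines lay apart from EV, and CBL-70Z and WT-CBL overlapped each other. The log2 fold changes were 0.31 ± 0.06, 0.58 ± 0.06 and 0.33 ± 0.06 in CBL-70Z, CBL-Y371S and WT-CBL. With the length and GC trend removed they were 0.24 ± 0.06, 0.46 ± 0.06 and 0.20 ± 0.06. Rrm1 was then higher in WT-CBL, at 0.31 ± 0.03.

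Gins4, another GINS subunit and the one with the highest level per kb in its group, had 1094.5, 1118.2 and 1141.3 normalised reads in CBL-70Z cells, 1413.3, 1345.2 and 1273.3 in CBL-Y371S, 1243.2, 1182.1 and 1204.9 in WT-CBL, and 1110.7, 1029.3 and 1044.1 in EV. CBL-70Z overlapped EV here, with 0.08 ± 0.04 (adjusted p = 0.229), and lay below WT-CBL by -0.11 ± 0.04 (adjusted p = 0.047). That call ended when any of 8 libraries was left out. With the length and GC trend removed, the difference from WT-CBL was -0.02 ± 0.04 (adjusted p = 0.73). Mcm10, which helps to activate the assembled helicase, and Cdc45 rose by 0.25 ± 0.04 and 0.21 ± 0.04 in CBL-70Z and by 0.47 ± 0.04 and 0.49 ± 0.04 in CBL-Y371S. In WT-CBL, Cdc45 rose by 0.15 ± 0.04 and Mcm10 was at 0.08 ± 0.04 (adjusted p = 0.142). Gins2 and Gins3 rose in both mutants, and of these 2 GINS subunits Gins3 was called in WT-CBL.

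Of the clamp and its loader, Pcna and Rfc2 to Rfc5 rose in every CBL line as fitted, and Rfc1 in none. Pcna, the sliding clamp, was at 1902.8, 1799.5 and 1891.0 in CBL-70Z cells, 2047.2, 2067.8 and 1991.2 in CBL-Y371S, 1700.2, 1676.4 and 1735.5 in WT-CBL, and 1544.5, 1552.2 and 1547.0 in EV. The 4 lines did not overlap, and the log2 fold changes against EV were 0.27 ± 0.03, 0.39 ± 0.03 and 0.14 ± 0.03 in CBL-70Z, CBL-Y371S and WT-CBL. Rfc1, the large subunit of the clamp loader, was at 3065.8, 3077.8 and 3079.4 in CBL-70Z cells, 2860.3, 2873.1 and 2815.6 in CBL-Y371S, 2867.2, 3016.9 and 2799.7 in WT-CBL, and 2985.6, 2951.0 and 2986.3 in EV. It was the only member whose 3 CBL-Y371S libraries all lay below EV, which 33.3% of all genes did, at -0.06 ± 0.03 (adjusted p = 0.0869), and the only one called higher in CBL-70Z than in CBL-Y371S, by 0.11 ± 0.03 (adjusted p = 0.00507). With a trend of fold change with exon length and GC content over all genes removed, these values were 0.08 ± 0.03 (adjusted p = 0.0345) and -0.03 ± 0.03 (0.488). As fitted, the 4 small subunits rose by 0.19 to 0.29 in CBL-70Z, 0.39 to 0.54 in CBL-Y371S and 0.11 to 0.25 in WT-CBL. With the trend removed, Rfc4 was not called in CBL-70Z (0.11 ± 0.04, adjusted p = 0.0901) or WT-CBL (-0.00 ± 0.04, 0.97). Pcna was then not called in WT-CBL (0.06 ± 0.03, adjusted p = 0.197).

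Among the 9 polymerase and primase genes, 8 rose in CBL-70Z, 8 in CBL-Y371S and 6 in WT-CBL. Pold1, the catalytic subunit of polymerase delta, which copies the lagging strand, was at 1916.1, 1961.8 and 2005.1 in CBL-70Z cells, 2496.1, 2627.6 and 2433.6 in CBL-Y371S, 1767.0, 1826.3 and 1917.7 in WT-CBL, and 1624.9, 1684.8 and 1547.0 in EV. Pold2, an accessory subunit, was at 1632.0, 1600.5 and 1694.1 in CBL-70Z cells, 2009.6, 2056.2 and 2029.1 in CBL-Y371S, 1532.8, 1622.2 and 1699.0 in WT-CBL, and 1347.7, 1387.9 and 1333.5 in EV. In both genes CBL-Y371S stood clear of all other lines, and CBL-70Z and WT-CBL overlapped. Pold1 rose by 0.28 ± 0.04 in CBL-70Z, 0.64 ± 0.04 in CBL-Y371S and 0.18 ± 0.04 in WT-CBL, and Pold2 by 0.28 ± 0.04, 0.58 ± 0.04 and 0.25 ± 0.04.

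Pold3, a further accessory subunit, changed less. It was at 585.6, 611.0 and 592.6 in CBL-70Z cells, 618.5, 662.1 and 594.2 in CBL-Y371S, 638.5, 573.0 and 573.1 in WT-CBL, and 549.3, 534.6 and 529.8 in EV. All 3 CBL lines lay above EV without overlap, and the calls differed: 0.15 ± 0.05 in CBL-70Z (adjusted p = 0.0519), 0.21 ± 0.05 in CBL-Y371S (0.00188) and 0.14 ± 0.05 in WT-CBL (0.0398).

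Pole, the catalytic subunit of polymerase epsilon, which copies the leading strand, had its lowest mean in WT-CBL. Its counts were 1765.9, 1704.4 and 1833.4 in CBL-70Z cells, 1783.2, 1793.2 and 1788.0 in CBL-Y371S, 1578.9, 1538.2 and 1394.3 in WT-CBL, and 1572.7, 1641.5 and 1635.4 in EV. Pole rose by 0.13 ± 0.04 in CBL-70Z cells (adjusted p = 0.0313), by 0.15 ± 0.04 in CBL-Y371S cells (0.00555), and was at -0.11 ± 0.04 in WT-CBL (0.0506). Without WT-CBL replicate 3, the lowest of the 12 libraries at this gene, the WT-CBL value was -0.05 ± 0.04 (adjusted p = 0.281), whereas it was -0.14 ± 0.04 (0.0152) without replicate 1 and -0.12 ± 0.05 (0.0437) without replicate 2. Pole2, the second subunit of the same enzyme, rose by 0.29 ± 0.05, 0.45 ± 0.05 and 0.19 ± 0.05 in CBL-70Z, CBL-Y371S and WT-CBL.

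Polymerase alpha starts each strand together with primase. Pola2, the second subunit, rose by 0.23 ± 0.03, 0.46 ± 0.03 and 0.16 ± 0.03 in CBL-70Z, CBL-Y371S and WT-CBL. Pola1, the catalytic subunit, rose in CBL-70Z, by 0.19 ± 0.04, and was at 0.10 ± 0.04 in CBL-Y371S (adjusted p = 0.0612) and -0.01 ± 0.04 in WT-CBL (0.821). With the length and GC trend removed, Pola1 was called higher than EV in all 3 lines, at 0.21 ± 0.04, 0.42 ± 0.04 and 0.15 ± 0.04 in CBL-70Z, CBL-Y371S and WT-CBL, and Pola2 was at 0.26 ± 0.03, 0.70 ± 0.03 and 0.30 ± 0.03. Pole and Pole2 then lay close to each other, at 0.19 ± 0.04 and 0.24 ± 0.05 in CBL-70Z, 0.41 ± 0.04 and 0.44 ± 0.05 in the CBL-Y371S line, and 0.09 ± 0.04 and 0.13 ± 0.05 in WT-CBL. Prim2, the large primase subunit, was at 903.4, 957.1 and 975.9 in CBL-70Z cells, 1021.2, 1148.5 and 1087.2 in CBL-Y371S, 897.1, 885.5 and 869.8 in WT-CBL, and 874.7, 874.1 and 846.1 in EV. Prim2 rose by 0.13 ± 0.05 in CBL-70Z cells (adjusted p = 0.048) and by 0.33 ± 0.05 in CBL-Y371S cells, and WT-CBL overlapped EV at 0.03 ± 0.05 (0.619). Prim1, the catalytic primase subunit, rose in all 3 lines, by 0.26 ± 0.04, 0.35 ± 0.04 and 0.20 ± 0.04.

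The single-strand binding complex RPA and the enzymes that join Okazaki fragments all rose in CBL-Y371S. Rpa1, the large RPA subunit, was the gene of this group with the highest level per kb. It was at 6304.3, 6165.4 and 6245.7 in CBL-70Z cells, 6753.3, 6982.0 and 6845.8 in CBL-Y371S, 6721.0, 6678.0 and 6801.2 in WT-CBL, and 5874.8, 5856.9 and 5793.8 in EV. Here WT-CBL overlapped CBL-Y371S, and CBL-70Z lay below both, by -0.11 ± 0.03 against WT-CBL (adjusted p = 0.00185) and -0.14 ± 0.03 against CBL-Y371S (1.3e-04). Rpa2 rose by 0.26 ± 0.05, 0.56 ± 0.05 and 0.25 ± 0.05 and Rpa3 by 0.26 ± 0.08, 0.33 ± 0.08 and 0.28 ± 0.08 in CBL-70Z, CBL-Y371S and WT-CBL. Lig1, the ligase that seals Okazaki fragments, rose by 0.22 ± 0.03, 0.49 ± 0.03 and 0.16 ± 0.03. Fen1, which trims their 5′ flaps, rose by 0.48 ± 0.06 in CBL-Y371S and was not called in CBL-70Z (0.16 ± 0.06, adjusted p = 0.0749) or WT-CBL (0.14 ± 0.06, 0.0964). With the length and GC trend removed, Rpa3 was not called in CBL-70Z (0.17 ± 0.08, adjusted p = 0.126) or WT-CBL (0.18 ± 0.08, 0.0885).

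All 4 genes of deoxynucleotide synthesis rose in all 3 lines. Ribonucleotide reductase, of 2 kinds of subunit, makes deoxynucleotides from ribonucleotides. Rrm2, the small subunit, whose protein is limited to S phase, was at 2765.3, 2785.8 and 2640.7 in CBL-70Z cells, 3066.5, 2934.8 and 3089.2 in CBL-Y371S, 2366.0, 2262.1 and 2341.0 in WT-CBL, and 2066.7, 2105.2 and 2277.7 in EV. Rrm1, the large subunit, was at 6799.9, 6977.5 and 6809.0 in CBL-70Z cells, 6858.3, 7051.8 and 6971.3 in CBL-Y371S, 6658.9, 6979.9 and 6735.4 in WT-CBL, and 6415.1, 6293.1 and 6331.2 in EV. At Rrm2 both mutants lay above WT-CBL, whereas at Rrm1 the 3 CBL lines overlapped and stood together above EV. Rrm2 rose by 0.35 ± 0.04, 0.50 ± 0.04 and 0.11 ± 0.04 and Rrm1 by 0.11 ± 0.03, 0.13 ± 0.03 and 0.10 ± 0.03 in CBL-70Z, CBL-Y371S and WT-CBL. The order of the subunits depended on the length and GC trend. With it removed, Rrm2 was at 0.30 ± 0.04, 0.46 ± 0.04 and 0.05 ± 0.04 (adjusted p = 0.376 in WT-CBL), and Rrm1, at 0.15 ± 0.03, 0.50 ± 0.03 and 0.31 ± 0.03, was then the higher of the pair in CBL-Y371S and WT-CBL. The difference between the subunits was not tested.

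Tk1, the cytosolic thymidine kinase of the salvage pathway, was at 1511.4, 1483.8 and 1542.3 in CBL-70Z cells, 1930.6, 1971.2 and 2005.6 in CBL-Y371S, 1494.3, 1523.3 and 1585.6 in WT-CBL, and 1255.3, 1310.3 and 1214.3 in EV. CBL-Y371S stood above all other lines, and CBL-70Z overlapped WT-CBL. The log2 fold changes were 0.26 ± 0.04, 0.64 ± 0.04 and 0.28 ± 0.04 in CBL-70Z, CBL-Y371S and WT-CBL. Tyms, thymidylate synthase, rose by 0.17 ± 0.04, 0.40 ± 0.04 and 0.16 ± 0.04.

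**Figure D4:**
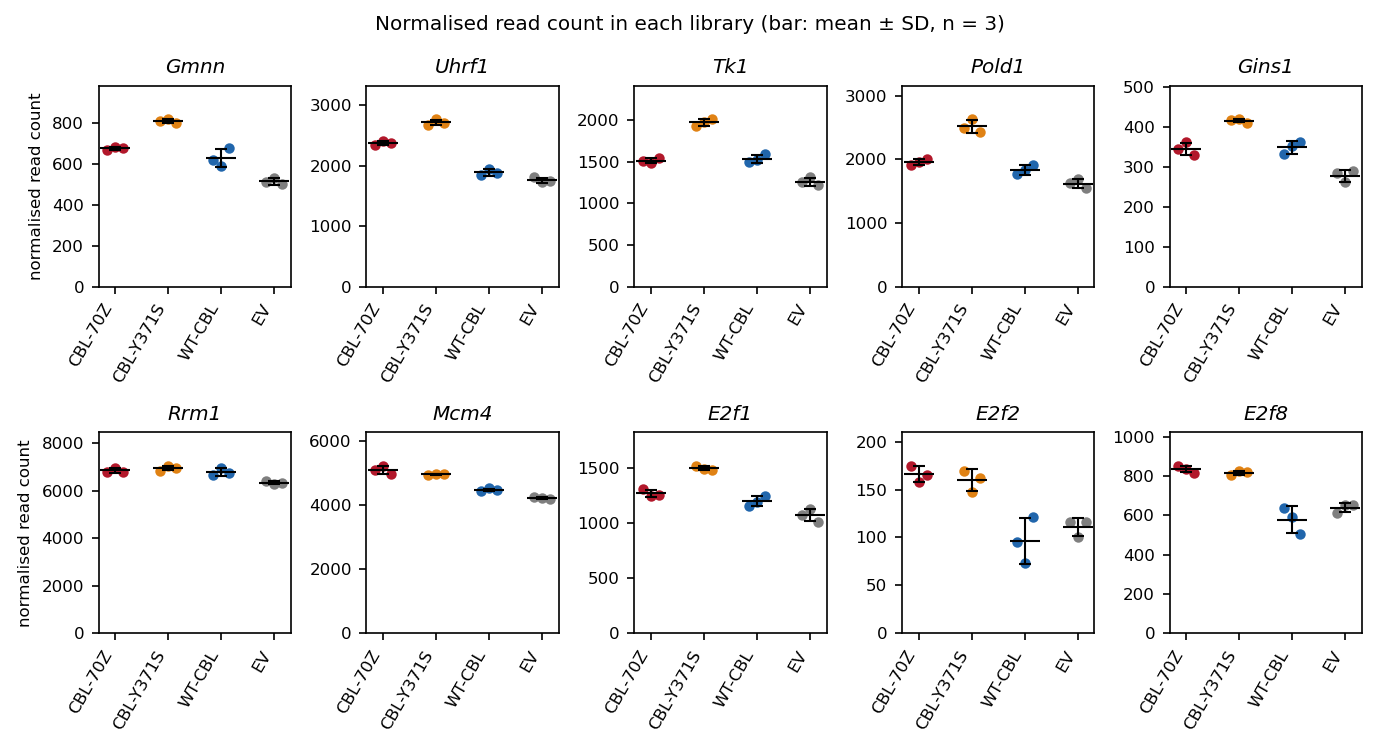
Normalised read count in each library (points) with mean ± SD (bars, n = 3) for 10 of the genes, each axis starting at 0. Gmnn, Tk1, Pold1 and Gins1 are highest in CBL-Y371S with CBL-70Z near WT-CBL, whereas at E2f2 and E2f8 the 2 mutants lie together above WT-CBL and EV.

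Uhrf1, which brings DNA methyltransferase to newly copied DNA, separated the mutants from WT-CBL. It was at 2337.2, 2414.9 and 2372.6 in CBL-70Z cells, 2677.2, 2766.0 and 2710.9 in CBL-Y371S, 1840.3, 1953.9 and 1875.2 in WT-CBL, and 1809.7, 1733.2 and 1739.3 in EV. No line overlapped another. The log2 fold changes were 0.43 ± 0.03 in CBL-70Z (adjusted p = 5.1e-09), 0.63 ± 0.03 in CBL-Y371S (4.2e-12) and 0.10 ± 0.03 in WT-CBL (0.0175). The WT-CBL value was 0.08 ± 0.03 (adjusted p = 0.0773) with the length and GC trend removed. Chaf1a and Chaf1b, the subunits of the histone chaperone CAF-1, rose by 0.19 ± 0.04 and 0.19 ± 0.05 in CBL-70Z cells and 0.41 ± 0.04 and 0.51 ± 0.05 in CBL-Y371S. In WT-CBL, Chaf1b rose by 0.19 ± 0.05 and Chaf1a was at 0.08 ± 0.04 (adjusted p = 0.095) as fitted. With the trend removed, both were called higher there, Chaf1a at 0.22 ± 0.04 (adjusted p = 2.0e-04) and Chaf1b at 0.20 ± 0.05 (0.00348).

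Of the 4 E2F genes, 3 rose in CBL-70Z, 3 in CBL-Y371S and 1 in WT-CBL. E2f1, an activator, rose in all 3 lines as fitted. With the length and GC trend removed, E2f1 was not called in WT-CBL (0.09 ± 0.04, adjusted p = 0.103). Its counts were 1308.1, 1245.8 and 1252.3 in CBL-70Z cells, 1518.3, 1491.8 and 1484.6 in CBL-Y371S, 1154.8, 1192.7 and 1243.4 in WT-CBL, and 1075.5, 1129.3 and 1012.4 in EV. All 3 CBL lines lay above EV, by 0.24 ± 0.04, 0.48 ± 0.04 and 0.16 ± 0.04 in CBL-70Z, CBL-Y371S and WT-CBL.

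E2f2, also an activator and the member with the lowest level per kb (27.32), was at 174.8, 157.9 and 165.4 in CBL-70Z cells, 169.6, 147.8 and 162.5 in CBL-Y371S, 94.98, 73.35 and 121.5 in WT-CBL, and 116.5, 100.1 and 116.3 in EV. The mutant libraries lay above all libraries of WT-CBL and EV, and WT-CBL spread across EV. E2f2 rose by 0.58 ± 0.13 in CBL-70Z cells (adjusted p = 0.00328), by 0.52 ± 0.13 in CBL-Y371S cells (0.00221), and was at -0.22 ± 0.13 in WT-CBL (0.199). Without WT-CBL replicate 3 the WT-CBL value became -0.40 ± 0.12 (adjusted p = 0.0125), and without replicate 2 it was -0.04 ± 0.12 (0.809).

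E2f8, an atypical E2F that represses the targets of the activators, was at 851.3, 838.1 and 816.7 in CBL-70Z cells, 803.5, 823.9 and 821.7 in CBL-Y371S, 639.5, 590.0 and 504.2 in WT-CBL, and 613.6, 650.6 and 651.9 in EV. The mutants again overlapped each other and lay clear of the other lines, with CBL-70Z at 0.39 ± 0.06, CBL-Y371S at 0.35 ± 0.06 and WT-CBL at -0.15 ± 0.06 (adjusted p = 0.0611). E2f7, the other atypical E2F, was at 0.15 ± 0.06 in CBL-70Z (adjusted p = 0.0808), 0.08 ± 0.06 in CBL-Y371S (0.228) and -0.10 ± 0.06 in WT-CBL (0.203).

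The mutants were then set against WT-CBL, a comparison of mutant with wild-type CBL. The lines also differ in reads at Cbl, which do not measure the dose of the insert, as given above. Whether the lines differ in the amount of CBL was not measured here, so mutation and amount of CBL cannot be told apart. CBL-70Z exceeded WT-CBL in 17 genes, against a background of 18.9%, and lay below it in 2, Gins4 and Rpa1, against 16.3%. The median log2 difference was 0.08. Without WT-CBL replicate 3, 19 genes were higher and 1 was lower. With the length and GC trend removed, Gins4 was not called in CBL-70Z against WT-CBL (-0.02 ± 0.04, adjusted p = 0.73). Rpa1 was then called lower at -0.15 ± 0.03 (adjusted p = 1.3e-04), as was Rrm1. CBL-Y371S exceeded WT-CBL in 42 genes and lay below it in none, against backgrounds of 18.5% and 21.5%, with a median of 0.29, or 1.22-fold. Without WT-CBL replicate 3 it exceeded it in 41, with a median of 0.31.

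Both mutants exceeded WT-CBL in 16 genes, where 5.29% of all genes did so. Without WT-CBL replicate 3 there were 18, of which 14 were shared, with Chaf1a and Pola1 dropped and Gins2, Gmnn, Pola2 and Pold1 added. The 16 were Cdc6, Cdt1, Mcm2, Mcm3, Mcm4, Mcm5, Mcm10, Pcna, Pola1, Pole, Rrm2, Chaf1a, Uhrf1, E2f2, E2f7 and E2f8. The largest differences were those of E2f2, at 0.80 ± 0.13 for CBL-70Z (adjusted p = 1.0e-04) and 0.75 ± 0.13 for CBL-Y371S (1.7e-04). E2f8 followed with 0.54 ± 0.06 and 0.50 ± 0.06. As fitted, E2f7 was not called against EV in any line and was higher than in WT-CBL by 0.24 ± 0.06 and 0.18 ± 0.06. With the length and GC trend removed, E2f7 was called higher than EV in CBL-70Z, at 0.19 ± 0.06 (adjusted p = 0.022), and CBL-Y371S, at 0.30 ± 0.06 (2.6e-04). Uhrf1 differed by 0.33 ± 0.03 for CBL-70Z and 0.52 ± 0.03 for CBL-Y371S, and Cdc6 by 0.32 ± 0.06 and 0.41 ± 0.06. With the trend removed, CBL-70Z was no longer called higher than WT-CBL at Chaf1a, E2f7, Mcm2, Mcm10, Pola1 and Pole. It was then called higher at E2f1, Gmnn, Lig1, Pold1 and Pold2.

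Between the mutants, CBL-70Z was lower than CBL-Y371S in 35 of the 48 genes, against a background of 24.5%, and higher in 1, against 25.9%. The median log2 difference was -0.21, or 0.866-fold. As fitted, the differences of largest size were -0.38 ± 0.04 for Tk1, -0.36 ± 0.04 for Pold1, -0.35 ± 0.04 for Rfc5 and -0.33 ± 0.05 for Chaf1b. With the length and GC trend removed, these were -0.38 ± 0.04, -0.25 ± 0.04, -0.33 ± 0.04 and -0.35 ± 0.05. The largest was then -0.44 ± 0.03 for Pola2, followed by -0.39 ± 0.05 for Prim2. In 34 genes CBL-Y371S exceeded both WT-CBL and CBL-70Z, where 12.7% of all genes did, and there were again 34 without WT-CBL replicate 3. Among the E2F genes, E2f1 was at -0.24 ± 0.04 (adjusted p = 9.2e-05), but at -0.07 ± 0.04 (0.239) with the length and GC trend removed. The other E2F genes were not called between the mutants, with differences of 0.05 ± 0.13 for E2f2 (adjusted p = 0.766), 0.06 ± 0.06 for E2f7 (0.412) and 0.03 ± 0.06 for E2f8 (0.691).

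A further 74 genes of replication, nucleotide synthesis and E2F control are not among the 48. In CBL-70Z, 35 of them rose and 1 fell, with a median of 0.11, against backgrounds of 12.2% higher and 12.1% lower. In CBL-Y371S, 52 rose and 13 fell, with a median of 0.16, against 29.8% and 30.3%. In WT-CBL, 26 rose and 11 fell, with a median of 0.05, against 20.8% and 21.0% (22 and 8, with a median of 0.04, without WT-CBL replicate 3). Dctpp1, which degrades non-canonical dCTP, was at 804.3, 749.4 and 809.4 in CBL-70Z cells, 1059.7, 1088.0 and 1039.4 in CBL-Y371S, 809.7, 831.3 and 910.3 in WT-CBL, and 647.7, 620.6 and 642.3 in EV. It rose in all 3 lines and was the largest change of the 74 in CBL-Y371S (0.74 ± 0.05) and WT-CBL (0.42 ± 0.05). Nme1, a nucleoside diphosphate kinase, rose by 0.36 ± 0.04 in WT-CBL. Its counts were 2929.9, 2898.3 and 2890.9 in CBL-70Z cells, 4004.8, 3745.8 and 3971.5 in CBL-Y371S, 3235.9, 3360.3 and 3758.5 in WT-CBL, and 2651.2, 2769.1 and 2649.8 in EV. Dscc1, a subunit of an alternative clamp loader, rose by 0.34 ± 0.08 in CBL-70Z cells and 0.54 ± 0.08 in CBL-Y371S cells. Ccne2, a cyclin that activates CDK2 at S phase entry, rose by 0.35 ± 0.06 in CBL-70Z.

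The genes that fell in CBL-Y371S and WT-CBL included members of the retinoblastoma family, which bind and restrain E2F factors. Others that fell in CBL-Y371S included Orc3, Orc4 and Top2a, at -0.14 ± 0.04, -0.19 ± 0.05 and -0.13 ± 0.03. The values in this paragraph are as fitted, without removal of the length and GC trend. Rb1 was at 305.6, 375.3 and 346.6 in CBL-70Z cells, 228.3, 225.8 and 249.2 in CBL-Y371S, 298.1, 303.0 and 270.3 in WT-CBL, and 388.6, 334.5 and 426.9 in EV. It fell in CBL-Y371S, by 0.70 ± 0.09 on the log2 scale (adjusted p = 9.6e-07), and in WT-CBL, by 0.39 ± 0.09 (0.00135), and CBL-70Z overlapped EV at -0.16 ± 0.09 (0.212). Rbl1, which encodes p107, fell in CBL-Y371S (-0.31 ± 0.05, adjusted p = 7.6e-06) and WT-CBL (-0.29 ± 0.05, 4.8e-05) and was at 0.07 ± 0.05 in CBL-70Z (0.271). Rbl2, which encodes p130, fell in CBL-Y371S (-0.49 ± 0.05, adjusted p = 8.2e-08) and WT-CBL (-0.16 ± 0.05, 0.0166) and was at -0.09 ± 0.05 in CBL-70Z (0.236). E2f6, a repressor without a retinoblastoma binding site, was at -0.68 ± 0.29 in CBL-Y371S (adjusted p = 0.0465), on counts of 33.72, 17.45 and 22.58 in CBL-Y371S and 32.14, 40.87 and 44.23 in EV that overlapped. Samhd1, which degrades deoxynucleotides, was the gene that fell in CBL-70Z, at -0.16 ± 0.03 (adjusted p = 0.0014). Its CBL-Y371S counts, 1879.6, 1877.0 and 1895.4, also lay below those of EV, 2126.0, 2013.5 and 2122.9.

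Fold changes in these libraries moved with exon length across all genes. Over 11141 genes with a mean of at least 100, the rank correlation of the log2 fold change with exon length was -0.261 in CBL-70Z, -0.516 in CBL-Y371S and -0.585 in WT-CBL against EV. The rank correlation with GC content was -0.044, 0.349 and 0.205 in the same order. Between CBL-70Z and CBL-Y371S it was 0.553 with exon length and -0.504 with GC content. Genes are not independent replicates, and all points of a comparison share the same libraries. The 48 genes had a median exon length of 4264 bases, against 3781 over all genes tested, and a median GC content of 49.3% against 49.7%. After the trend with length and GC content over all genes was removed, 39, 47 and 26 of the 48 were higher than in EV in CBL-70Z, CBL-Y371S and WT-CBL, against 1665, 4133 and 2458 of the 15095 genes with a length and GC content. The medians were 0.22, 0.43 and 0.13.

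Individual genes moved more than the group when the trend with length and GC content was removed. For Rrm1, with 11012 bases of exon, the difference between CBL-70Z and WT-CBL turned to -0.16 ± 0.03 (adjusted p = 1.3e-04). Pola1, Pole and Rfc1, also long, were at 0.42 ± 0.04, 0.41 ± 0.04 and 0.08 ± 0.03 in CBL-Y371S, all called higher. In WT-CBL, 11 calls were lost, those of E2f1, Gins3, Gins4, Mcm4, Orc6, Pcna, Pole2, Rfc4, Rpa3, Rrm2 and Uhrf1, and 5 were gained, with Chaf1a, Mcm2, Mcm10 and Pola1 called higher and Cdt1 lower. Between CBL-70Z and WT-CBL, 8 calls were lost, those of Chaf1a, E2f7, Gins4, Mcm2, Mcm10, Pola1, Pole and Rfc1, and 6 were gained, those of E2f1, Gmnn, Lig1, Pold1, Pold2 and Rrm1. Between the mutants, 5 were lost (E2f1, Gins2, Gins3, Pold2 and Rfc1) and 4 gained (Pola1, Pole, Prim1 and Rrm1). Pola1, at 0.09 ± 0.04 (adjusted p = 0.0862) as fitted, turned to -0.21 ± 0.04 (8.2e-04) in CBL-70Z against CBL-Y371S. In CBL-70Z against EV, Prim2, Rfc4 and Rpa3 lost their calls and E2f7 gained one. The cause of the length and GC trend was not tested, and the parts of length and of GC content in these changes were not separated. The E2f2 and E2f8 values changed little, to 0.60 ± 0.13 and 0.40 ± 0.06 in CBL-70Z cells, 0.47 ± 0.13 and 0.41 ± 0.06 in CBL-Y371S, and -0.22 ± 0.13 and -0.12 ± 0.06 in WT-CBL.

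**Figure D5:**
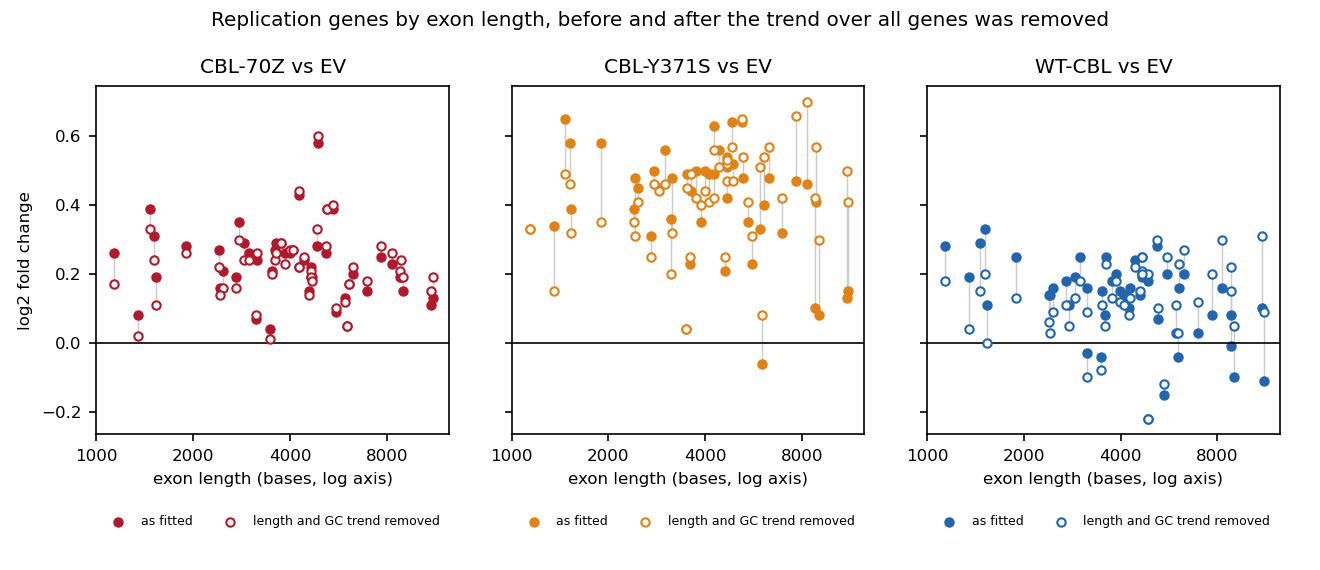
Log2 fold change against EV of the 48 genes by exon length (bases, log axis) as fitted (filled points) and after the length and GC trend over all genes was removed (open points), with a gray line joining the 2 values of a gene. In CBL-Y371S the longest genes, among them Rrm1 (11012 bases), move up. The median of the genes with up to 6000 bases moves down there, from 0.48 to 0.42, but Rpa3, the shortest (1136 bases), stays at 0.33. In CBL-70Z the values shift little.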

How the data were processed

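RNA of the 12 libraries was sequenced by the authors as pairs of reads with a kit that does not mark strand. Per the labels and methods, TopHat2 2.0.13, running Bowtie2 2.2.4.0, aligned the reads to GRCm38, and HTSeq 0.9.1 counted them per gene; the annotation release and strand setting are not given in the sources used here. The deposited values are normalized counts (signal, size-factor scaled by the authors with DESeq2) in 3 tables, each of 1 CBL line beside EV and normalized on its own. The tables also hold the authors' fold changes and p-values, which were not used.

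Whole reads were recovered from the values, 100% of which came out whole at a tolerance of 1e-06, with identical EV reads in each table. Median-of-ratios size factors over all 12 libraries then gave the normalised read counts used here. The filter required a mean of 10 or more in at least 1 line, which all 48 members passed. limma 3.58.1 (eBayes with trend) was fitted to log2(value + 1) with the 4 lines as groups, so folds are on that scale, and Benjamini-Hochberg adjustment ran over 15266 genes. SE is limma's moderated standard error. The method was tested on simulated data. Intervals of counting error were not computed, since errors come from the 3 libraries per line.

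Alternatives were TMM factors, edgeR 4.0.16 and DESeq2 1.42.0 on recovered reads, other pseudocounts and filters, only the lines compared, a replicate block, removal of a length and GC trend (natural splines, 5 degrees of freedom), and each library left out. Values in every library are given for the 3 called members with the highest and the 3 with the lowest fold change in each comparison with EV and for the member of each role with the highest level per kb. Of the other pathway genes, the 2 highest and 2 lowest called in each comparison with EV are named. Values of Rbl2 and values per library of Rfc1 and E2f8, and the other genes named, were chosen after their values were seen. The members and lists were chosen with earlier results of these data known. Exon lengths came from GENCODE M21, and promoters from RefSeq, which matched 40 of the 48 members.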

Additional observations from a re-analysis of the deposited data

How the results depend on the processing

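The directions of the 6 comparisons over the 48 genes held under every alternative run. Median log2 fold changes moved to 0.43 (CBL-Y371S against EV), 0.13 (WT-CBL against EV) and -0.20 (CBL-70Z against CBL-Y371S) with the length and GC trend removed, with or without the replicate block, and the count of members called higher in CBL-70Z than in CBL-Y371S, 1 as fitted (Rfc1), was then 0. Members called lower changed from 0 to 1 in CBL-Y371S against EV with only the 2 lines compared, and from 0 to 1 in WT-CBL against EV with TMM factors, edgeR, a pseudocount of 5, a mean of at least 50, and the trend removed with or without the block. In CBL-70Z against WT-CBL they changed from 2 to 1 with edgeR, DESeq2, no filter, only the 2 lines, and an adjusted p below 0.01. Rrm1 in CBL-70Z against WT-CBL, not called as fitted (0.02), was called lower at -0.16 with the trend removed, with or without the block. Pola1 also turned with the trend removed, to 0.15 in WT-CBL against EV (-0.01 as fitted) and to -0.21 in CBL-70Z against CBL-Y371S (0.09 as fitted), and Rfc1 turned to 0.08 in CBL-Y371S against EV (-0.06 as fitted).

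Leaving out each library in turn, the genes called higher ran from 38 to 43 in CBL-70Z, 44 to 45 in CBL-Y371S and 28 to 33 in WT-CBL against EV, the lowest of the last without EV replicate 2. Against WT-CBL they ran from 14 to 19 for CBL-70Z and from 39 to 42 for CBL-Y371S, and those lower in CBL-70Z than in CBL-Y371S from 33 to 35. Members called lower ran from 0 to 1 in CBL-Y371S against EV, 0 to 2 in WT-CBL against EV and 1 to 2 in CBL-70Z against WT-CBL. Medians ran from 0.43 to 0.46 and 0.13 to 0.16 in CBL-Y371S and WT-CBL against EV, 0.06 to 0.08 and 0.27 to 0.31 against WT-CBL for CBL-70Z and CBL-Y371S, and -0.22 to -0.20 between the mutants. Calls of genes near the threshold ended without single libraries: Pole in CBL-70Z against EV without any EV library or CBL-70Z replicate 1 or 3 (adjusted p up to 0.145), Prim2 in the same comparison without any EV library, CBL-70Z replicate 2 or 3, WT-CBL replicate 1 or 2, or CBL-Y371S replicate 3 (up to 0.175), and Gins4 in CBL-70Z against WT-CBL without any CBL-70Z library, WT-CBL replicate 1 or 3, EV replicate 2 or 3, or CBL-Y371S replicate 2 (up to 0.154). In WT-CBL against EV, Mcm4 and Uhrf1 lost theirs without EV replicate 2 or 3 or WT-CBL replicate 2 (up to 0.0625 and 0.09), Rrm2 without EV replicate 1 or 2 or WT-CBL replicate 1 (up to 0.126), and Pold3 without any EV library, WT-CBL replicate 1 or CBL-Y371S replicate 1 (up to 0.212). Gins4 in CBL-Y371S against WT-CBL lost its call without CBL-Y371S replicate 1 (0.0638).

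No pairing of the samples by replicate number was detected, as 1 of 18 same-numbered pairs had deviations correlated above 0.1 (-0.097 to 0.212). With 3 libraries per line this cannot show that the samples were not paired. With the replicate block, 40, 44 and 32 genes were called higher in CBL-70Z, CBL-Y371S and WT-CBL against EV.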

Other observations

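A list of 30 mitosis genes was set beside the replication genes. In CBL-70Z against EV, 24 rose and none fell, with a median log2 fold change of 0.15, where 12.2% of all genes were called higher and 12.1% lower. In CBL-Y371S, 22 rose and 5 fell (median 0.19), where 29.8% and 30.3% of all genes were. In WT-CBL, 12 rose and 7 fell (median 0.06), or 11 and 5 without WT-CBL replicate 3, where 20.8% and 21.0% were. Birc5, the chromosomal passenger protein survivin, rose by 0.23 ± 0.04, 0.60 ± 0.04 and 0.29 ± 0.04 in CBL-70Z, CBL-Y371S and WT-CBL. Mki67, the proliferation antigen Ki-67, was at 11032.8, 11307.7 and 11052.8 normalised reads in CBL-70Z cells, 9177.2, 8933.4 and 8930.9 in CBL-Y371S, 8350.6, 8786.0 and 7318.6 in WT-CBL, and 10283.5, 10176.6 and 10108.8 in EV. Both CBL-Y371S and WT-CBL lay below EV, by -0.18 ± 0.04 (adjusted p = 0.00145) and -0.33 ± 0.04 (6.3e-06), and CBL-70Z lay above it by 0.13 ± 0.04 (0.0372). Cenpf, a kinetochore protein, was at -0.31 ± 0.04 in CBL-Y371S and -0.33 ± 0.04 in WT-CBL, and Anln, the contractile ring protein anillin, 0.28 ± 0.03 in CBL-70Z and -0.13 ± 0.03 in WT-CBL. These genes were chosen after their values were seen, and their part in the length trend was not tested.

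Samples of a line were 3 in number, so none was tested as an outlier.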
